A study of Nicotiana plumbaginifolia and Nicotiana benthamiana and Nicotiana rustica with 81 samples.

Results

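Gene expression in the floral nectary of Nicotiana benthamiana was compared between the post secretory stage and stage 12. The comparison took in the 20747 transcripts, of 38230 in the authors' deposited table, with a mean normalized count of 50 or more in either group. Of the remaining transcripts, 10354 were listed at 0 in both groups and 7129 lay above 0 but under 50 in both. The study sequenced RNA from nectaries of 6 Nicotiana species at 4 flower stages and from 3 other tissues of N. plumbaginifolia, 81 libraries in all, of which 6 enter this comparison. The post secretory group held 3 libraries of N. benthamiana nectaries, at a stage that the protocol text calls post-fertilization. The stage 12 group held 3 libraries of N. benthamiana nectaries from mature flowers at anthesis. Plants of both groups belonged to N. benthamiana TW-17, an accession of a wild tobacco used widely as a laboratory host, grown under long days, and no treatment or transgene is named for either. Nectaries were cut out by hand, and the labels do not say whether the 3 libraries of a group came from separate plants, so the p-values below measure only the spread between these libraries, which may be technical.

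The nectary is a gland at the base of the flower that secretes sugar solution to reward pollinators. In secreting nectaries, starch and imported sucrose supply sugar, the exporter SWEET9 releases sucrose to the outside of the cell, and a cell wall invertase splits it into glucose and fructose. In tobacco, the gland of the open flower also turns orange with carotenoids, and the transcription factor MYB305 and the nectarin proteins are characteristic of it.

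Each level below is the authors' group mean ± SD of normalized counts over 3 libraries. Values of single libraries were not analysed here. A change is log2 of the post secretory mean plus 1 over the stage 12 mean plus 1, given with its standard error, so a negative change means a lower level post secretory. A transcript rose or fell when limma's Benjamini-Hochberg adjusted p over all 20747 transcripts was under 0.05 and the change was at least 2-fold. By that call 2733 transcripts rose and 2160 fell, which is 13.2% and 10.4% of those tested and 23.6% together. The counts of rises and falls in each gene list below are to be read beside these shares. The median change over all tested transcripts was -0.03. In 4877 of the 4893 called transcripts the group means differed by more than the sum of the SDs, and the other 16 were rises. Changes of at least 8-fold numbered 171 upward and 252 downward. Of the rises, 1082 were under 50 at stage 12, and of the falls, 507 were under 50 post secretory. When a mean of 50 or more was required in both groups, 1651 rises and 1653 falls were left among 18363 transcripts.

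Transcripts that fell made up 7.20% of the summed counts post secretory, against 25.8% at stage 12, and the transcripts that rose made up 18.3% post secretory, against 5.03% at stage 12. The summed means were 8760702 post secretory and 10114186 at stage 12. The median coefficient of variation over 3 libraries was 8.57% post secretory and 6.48% at stage 12. The authors' deposited table calls 84.8% of the rises, 92.5% of the falls and 39.5% of the 15854 remaining transcripts differentially expressed, by a threshold that the sources used here do not state.

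**Figure D1:**
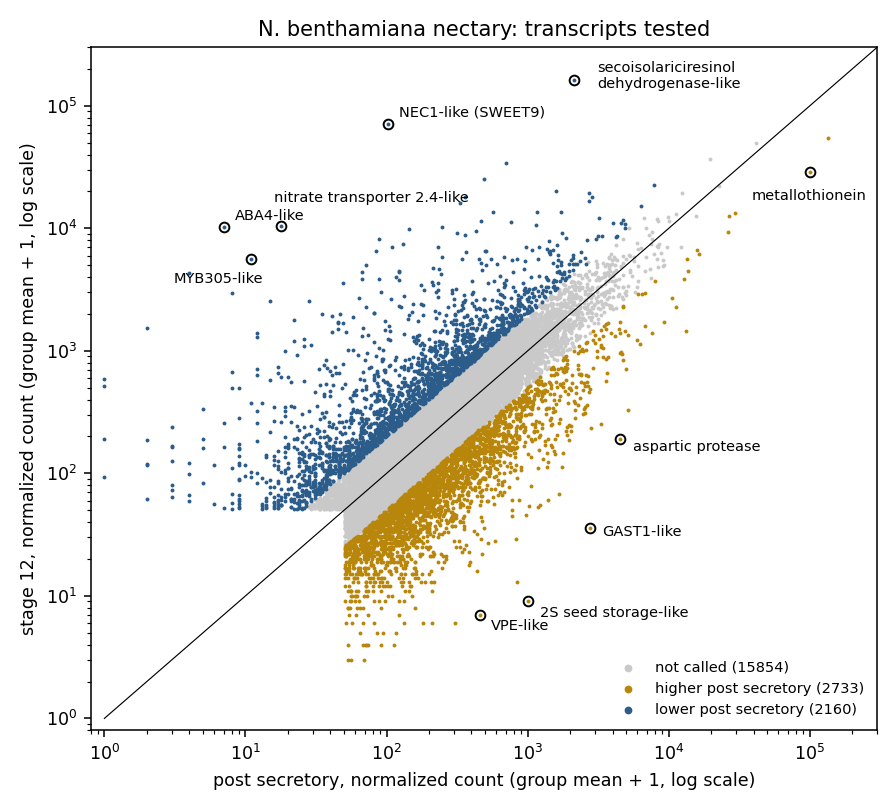
Group means of the 20747 tested transcripts, plus 1, post secretory on the x axis and stage 12 on the y axis, both on a log scale in normalized counts, with the line of equal levels. Points above the line are lower post secretory, and the ABA DEFICIENT 4-like, NEC1-like, nitrate transporter and MYB305-like transcripts lie far from it, while the 2733 rises lie below it.

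Levels of 5 transcripts characteristic of the gland come first. They were chosen with results of these data known. Other members of the sugar transporter, regulator and nectarin lists, given below, rose or were not called. Post secretory, the NEC1-like transcript (SWEET9) stood at 101 ± 22, against 70716 ± 2105 at stage 12 (XM_016615427.1; change -9.44 ± 0.13, adjusted p = 1.0e-11). The insoluble invertase CWINV4-like, which splits exported sucrose in the cell wall, stood at 247 ± 34 post secretory, against 10292 ± 269 at stage 12 (XM_016593154.1; -5.38 ± 0.09, adjusted p = 3.6e-11). MYB305-like, a regulator of nectary maturation in tobacco, stood at 10 ± 3 post secretory, against 5573 ± 194 at stage 12 (XM_016644811.1; -8.99 ± 0.16, adjusted p = 3.8e-11). CRABS CLAW-like, the regulator that Arabidopsis needs to form a nectary, stood at 108 ± 21 post secretory, against 7099 ± 439 at stage 12 (XM_016610040.1; -6.03 ± 0.12, adjusted p = 7.6e-11). Nectarin-1, a superoxide dismutase of tobacco nectar, stood at 121 ± 13 post secretory, against 4523 ± 93 at stage 12 (XM_016580669.1; -5.21 ± 0.08, adjusted p = 2.3e-11). All 5 were far above the spread of their libraries at stage 12, and the groups were separated by many SDs in each case. Fewer gland cells in the dissected tissue and less of these RNAs per cell cannot be told apart.

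**Figure D2:**
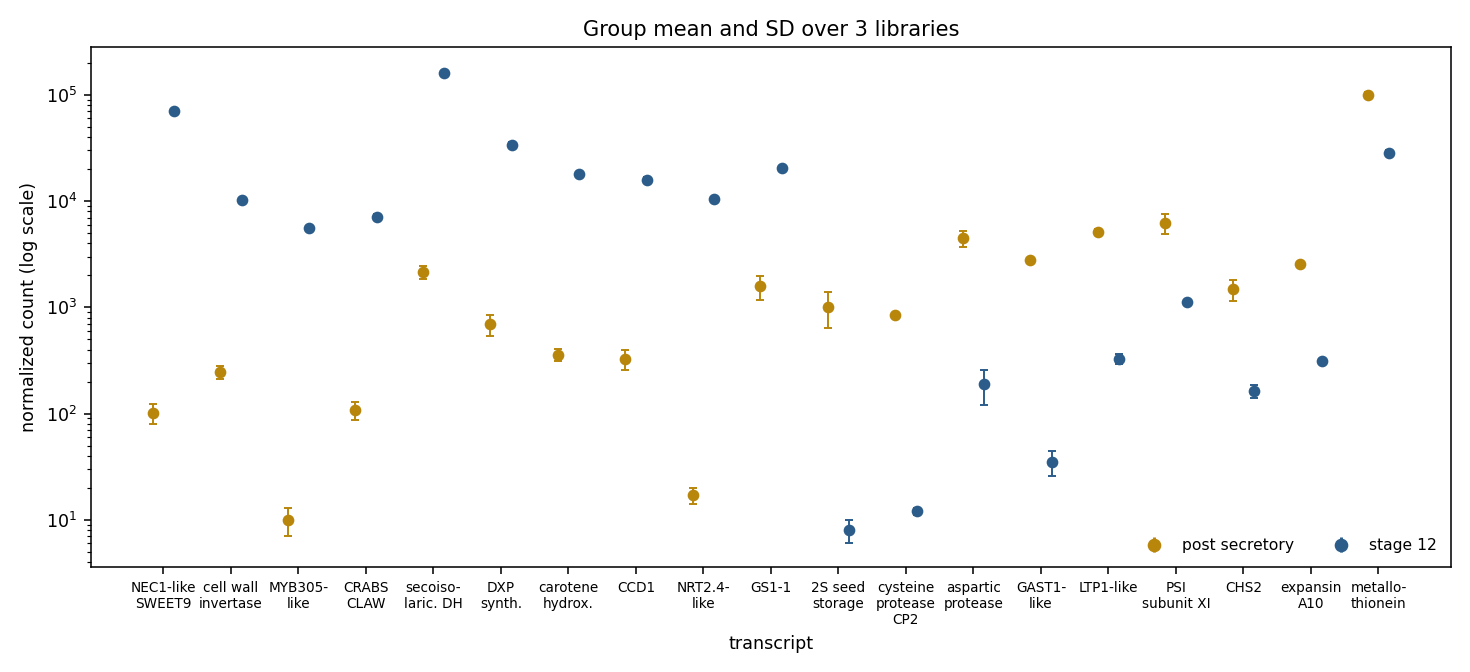
Mean normalized count (points, log scale) and SD over 3 libraries (bars) of 19 named transcripts, with post secretory left of stage 12 for each. The 10 transcripts on the left were lower post secretory and the 9 on the right higher, and no pair of SD bars overlaps.

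The invertases fell, while sugar transporters moved both ways. All 4 tested transcripts of the list of invertases and their inhibitors were invertases, none an inhibitor, and fell, with a median change of -4.20. They include a vacuolar acid invertase, at 175 ± 13 post secretory against 3469 ± 212 at stage 12 (XM_016634894.1). Of 35 tested SWEET and other sugar transporters, 11 rose and 11 fell, with a median of 0.17. The second NEC1-like transcript was listed at 0 post secretory, against 518 ± 11 at stage 12 (XM_016577514.1). A SWEET12-like exporter matched to AT5G50790 fell to 926 ± 63 post secretory, against 3610 ± 82 at stage 12 (XM_016615819.1, change -1.96). A SWEET1-like transcript reached 946 ± 219 post secretory, against 165 ± 15 at stage 12 (XM_016651893.1, 2.51 ± 0.15). Another SWEET12-like transcript, matched to AT4G25010, reached 2593 ± 412 post secretory, against 1152 ± 48 at stage 12 (XM_016612876.1, 1.17 ± 0.10). The SUC2-like phloem sucrose carrier was not called, at 880 ± 5 post secretory and 797 ± 26 at stage 12 (XM_016599244.1).

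The sucrose synthesis list held sucrose synthases beside sucrose-phosphate synthases, so its counts are not of synthesis alone. It was split between copies of the same enzymes. Of 18 tested transcripts, 4 rose and 4 fell, with a median of -0.02. Sucrose-phosphate synthase 2, which makes the sucrose precursor, fell to 264 ± 84 post secretory, against 1961 ± 61 at stage 12 (XM_016607051.1). A sucrose synthase fell to 1512 ± 205 post secretory, against 5240 ± 431 at stage 12 (XM_016604254.1, -1.79 ± 0.10). Another sucrose synthase rose to 344 ± 33 post secretory, against 76 ± 6 at stage 12 (XM_016627888.1, 2.16 ± 0.11). The most abundant member was not called, a sucrose-phosphate synthase at 4118 ± 310 post secretory and 4363 ± 49 at stage 12 (XM_016579809.1).

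No starch synthesis transcript of 33 tested rose and 7 fell, with a median of -0.63. The falls were 21.2% of the list, beside 10.4% of all tested transcripts. The most abundant, a large subunit of ADP-glucose pyrophosphorylase that commits glucose to starch, stood at 12520 ± 1237 post secretory and 19547 ± 477 at stage 12 and was not called (XM_016653552.1, -0.64 ± 0.10). Granule-bound starch synthase 1, the amylose-making enzyme, stood at 5196 ± 371 post secretory and 10061 ± 341 at stage 12, just short of 2-fold (XM_016577486.1, -0.95 ± 0.08). The plastid glucose 6-phosphate importer GPT2-like fell to 486 ± 147 post secretory, against 1602 ± 90 at stage 12 (XM_016596315.1). Among 37 starch breakdown transcripts 2 rose and 5 fell, with a median of -0.28. Beta-amylase 1, which releases maltose from starch, fell to 1749 ± 598 post secretory, against 9087 ± 537 at stage 12 (XM_016660106.1, -2.38 ± 0.19).

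The MYB305 and CRABS CLAW transcripts fell, while most other floral regulators were not called. Of 37 tested regulators, 4 rose, 8 fell and 25 were not called, with a median of -0.08. A second MYB305-like transcript stood at 7 ± 1 post secretory, against 2943 ± 38 at stage 12 (XM_016582512.1). The auxin response factor 8-like transcript, whose Arabidopsis counterpart promotes flower maturation, stood at 3686 ± 263 post secretory and 3688 ± 380 at stage 12 (XM_016609388.1, 0.00 ± 0.09). The SEPALLATA-type AGL9 homolog stood at 3122 ± 250 post secretory and 2546 ± 145 at stage 12 and was not called (XM_016582910.1, 0.29 ± 0.08).

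The most abundant transcript at stage 12 was annotated secoisolariciresinol dehydrogenase-like, a short-chain dehydrogenase. It stood at 2135 ± 291 post secretory, against 162193 ± 5802 at stage 12 (XM_016585496.1; -6.25 ± 0.11, adjusted p = 3.8e-11). Its levels at stages 6 and 9 were 7902 and 33373, so stage 12 was the highest of the 4 stages. The sum of the list of nectarins and related nectar proteins was 5770 post secretory, against 173111 at stage 12, and this transcript held most of it at stage 12 but not post secretory. Of the 16 tested members 6 rose and 7 fell, with a median of -0.09. A cannabidiolic acid synthase-like transcript of the berberine bridge enzyme family, to which nectar oxidases belong, fell to 11 ± 2 post secretory, against 1285 ± 40 at stage 12 (XM_016601690.1). A nectarin-1-like germin rose to 495 ± 72 post secretory, against 147 ± 6 at stage 12 (XM_016657282.1, 1.74 ± 0.11).

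The carotenoid pathway and the plastid isoprenoid route that feeds it fell nearly throughout. Of 39 tested transcripts, 33 fell and 4 rose, with a median of -4.11 beside -0.03 over all tested transcripts, and the list sum was 8415 post secretory, against 170725 at stage 12. With a mean of 50 or more required in both groups, 21 falls were left. The entry enzyme of the plastid route, 1-deoxyxylulose 5-phosphate synthase, fell to 696 ± 155 post secretory, against 33858 ± 2154 at stage 12 (EU650419.1; -5.60 ± 0.14, adjusted p = 3.3e-10). The reductoisomerase that follows it fell to 567 ± 150 post secretory, against 13601 ± 1186 at stage 12 (DQ839130.1, -4.58 ± 0.16). Phytoene synthase 2, which commits carbon to carotenoids, fell to 11 ± 6 post secretory, against 1393 ± 49 at stage 12 (XM_016615435.1; -6.86 ± 0.28, adjusted p = 1.0e-08).

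The desaturases and isomerases that turn phytoene into lycopene fell too. Phytoene desaturase stood at 502 ± 78 post secretory, against 6559 ± 408 at stage 12 (XM_016642615.1). Zeta-carotene isomerase stood at 87 ± 29 post secretory, against 8208 ± 510 at stage 12 (XM_016621202.1). Zeta-carotene desaturase stood at 549 ± 20 post secretory, against 5612 ± 121 at stage 12 (XM_016658599.1). Further along the pathway, beta-carotene hydroxylase 2, which makes zeaxanthin, fell to 359 ± 48 post secretory, against 18060 ± 608 at stage 12 (XM_016611556.1; -5.65 ± 0.09, adjusted p = 2.5e-11). The cleavage enzyme CCD1, which cuts carotenoids into volatile apocarotenoids, fell to 328 ± 71 post secretory, against 15956 ± 984 at stage 12 (KC747729.1, -5.60 ± 0.13).

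The largest fall of the comparison by the naming rule was that of an ABA DEFICIENT 4-like transcript, whose Arabidopsis relative acts in neoxanthin formation. It stood at 6 ± 2 post secretory, against 10191 ± 672 at stage 12 (XM_016641671.1; -10.51 ± 0.17, adjusted p = 2.3e-11). It was already high at stages 6 and 9, at 16543 and 16183. A further copy was listed at 0 ± 1 post secretory, against 188 ± 41 at stage 12 (XM_016585363.1). Other copies went the other way, one of them to 293 ± 21 post secretory, against 90 ± 12 at stage 12 (XM_016637328.1, 1.69 ± 0.12). Lycopene epsilon cyclase, which directs lycopene toward lutein, the carotenoid of leaf antennae, rose to 193 ± 19 post secretory, against 34 ± 0 at stage 12 (XM_016658602.1, 2.47 ± 0.13).

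Nitrate uptake and reduction and a cytosolic glutamine synthetase fell, while some other steps of ammonium assimilation rose or were not called. Of 32 tested nitrogen assimilation and amino acid transport transcripts, 4 rose and 9 fell, with a median of -0.30. The high-affinity nitrate transporter NRT2.4-like stood at 17 ± 3 post secretory, against 10492 ± 299 at stage 12 (XM_016653517.1; -9.19 ± 0.11, adjusted p = 6.9e-12). Its partner protein NRT3.1-like stood at 96 ± 19 post secretory, against 1763 ± 45 at stage 12 (XM_016589343.1, -4.18 ± 0.12). Nitrate reductase, which makes nitrite, stood at 342 ± 12 post secretory, against 2373 ± 179 at stage 12 (XM_016606716.1, -2.79 ± 0.08). Cytosolic glutamine synthetase 1-1, which fixes ammonium, fell to 1579 ± 401 post secretory, against 20343 ± 436 at stage 12 (XM_016610836.1; -3.69 ± 0.15, adjusted p = 9.9e-09). The glutamine synthetase 2 locus, AT5G35630, rose in sum to 1789 post secretory, against 690 at stage 12 (1.37). The glutamate synthase loci AT5G04140, AT5G53460 and AT2G41220 were not called (0.03, -0.14 and -0.40). An amino acid permease 6-like carrier fell to 640 ± 167 post secretory, against 4106 ± 325 at stage 12 (XM_016613465.1), while an amino acid permease 3-like carrier rose to 627 ± 66 post secretory, against 167 ± 16 at stage 12 (XM_016610313.1).

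Of 81 tested water channel and proton pump transcripts 16 rose and 12 fell, beside 13.2% and 10.4% of all tested transcripts. Their median was -0.06. A plasma membrane aquaporin of the PIP2 type fell to 758 ± 50 post secretory, against 11275 ± 828 at stage 12 (BK008505.1; -3.89 ± 0.08, adjusted p = 8.4e-11). The plasma membrane proton ATPase 2, which energizes secondary transport, fell to 2644 ± 113 post secretory, against 8035 ± 377 at stage 12 (XM_016602228.1, -1.60 ± 0.07). Another PIP2-type aquaporin, matched to AT4G35100, rose to 4598 ± 336 post secretory, against 979 ± 64 at stage 12 (BK008513.1, 2.23 ± 0.08). The vesicle secretion list moved little, with 4 rises and 5 falls among 77 tested and a median of -0.14.

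Genes of the photosynthetic light reactions rose nearly throughout. Of 68 tested light harvesting and photosystem transcripts, 59 rose and 1 fell, with a median of 2.39, and the list sum was 80230 post secretory, against 19062 at stage 12. The photosystem I subunit O-like transcript reached 1186 ± 189 post secretory, against 52 ± 4 at stage 12 (XM_016606190.1; 4.49 ± 0.12, adjusted p = 6.0e-10). The most abundant, photosystem I subunit XI, reached 6215 ± 1312 post secretory, against 1135 ± 43 at stage 12 (XM_016588736.1, 2.45 ± 0.13). A subunit of the oxygen-evolving complex reached 3322 ± 551 post secretory, against 251 ± 14 at stage 12 (XM_016587038.1, 3.72 ± 0.11). Spread was wide in some antenna transcripts: the chlorophyll a/b binding protein Cab40 stood at 5994 ± 3755 post secretory, against 1218 ± 23 at stage 12 (X52744.1, 2.30 ± 0.33). In 3 further chlorophyll a/b binding transcripts among the rises, the difference was smaller than the sum of the SDs. Light-harvesting proteins were also the markers taken for leaf-type green tissue, so greener nectary cells and more green tissue around the gland cannot be told apart.

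The carbon-fixing Calvin cycle was less uniform, with 10 rises and 4 falls among 21 tested and a median of 0.47. Copies of the Rubisco small subunit, which share sequence closely, moved in opposite directions. One reached 1751 ± 31 post secretory, against 112 ± 21 at stage 12 (XM_016613904.1, 3.95 ± 0.12), while another stood at 18 ± 3 post secretory, against 345 ± 16 at stage 12 (XM_016595419.1, -4.19 ± 0.14). Reads of such copies can be divided by the mapping, so their separate values are uncertain.

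Chlorophyll synthesis had 4 rises and 1 fall among 16 tested, with a median of 0.76. Protochlorophyllide reductase, the light-dependent step, rose by 3.05 on the log2 scale (XM_016608864.1). Magnesium protoporphyrin methyltransferase, an earlier step, rose to 361 ± 58 post secretory, against 85 ± 8 at stage 12 (XM_016647001.1, 2.07 ± 0.13). Chlorophyll breakdown had 1 rise and 4 falls among 8 tested, with a median of -0.75. STAY-GREEN, which removes magnesium from chlorophyll, fell to 381 ± 32 post secretory, against 1651 ± 76 at stage 12 (XM_016651072.1, -2.11 ± 0.08). Pheophorbide a oxygenase, which opens the ring, fell to 650 ± 71 post secretory, against 1823 ± 89 at stage 12 (XM_016628974.1, -1.49 ± 0.09).

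Several of the largest rises were of proteases and of proteins of storage, wall and lipid metabolism. The 2S sulfur-rich seed storage protein-like transcript reached 1013 ± 376 post secretory, against 8 ± 2 at stage 12 (XM_016605163.1; 6.82 ± 0.25, adjusted p = 5.3e-09). The cysteine protease CP2, of a family linked to programmed cell death in plants, reached 844 ± 20 post secretory, against 12 ± 1 at stage 12 (AY881010.1; 6.02 ± 0.11, adjusted p = 4.8e-11). The subtilisin-like serine protease SBT1.9 reached 831 ± 235 post secretory, against 28 ± 2 at stage 12 (XM_016606123.1). These 3 were under 30 at stages 6 and 9 as well.

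An aspartic protease stood at 4488 ± 748 post secretory, against 190 ± 69 at stage 12 (XM_016660375.1; 4.55 ± 0.22, adjusted p = 3.2e-08). Extensin-2-like, a structural wall glycoprotein, reached 1402 ± 41 post secretory, against 60 ± 4 at stage 12 (XM_016616260.1, 4.52 ± 0.08). A GDSL esterase/lipase matched to AT5G33370 reached 1659 ± 76 post secretory, against 67 ± 20 at stage 12 (XM_016597574.1, 4.61 ± 0.17). The cytochrome P450 78A5-like transcript, from a family that promotes organ growth in Arabidopsis, reached 523 ± 139 post secretory, against 26 ± 10 at stage 12 (XM_016624474.1, 4.28 ± 0.26). A vacuolar-processing enzyme-like transcript, a protease that matures vacuolar proteins, reached 456 ± 11 post secretory, against 6 ± 2 at stage 12 (XM_016620987.1, 6.03 ± 0.20).

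The transcript with the highest level post secretory carries a cytochrome P450-like annotation and varied widely between libraries. It stood at 134435 ± 58683 post secretory and 55023 ± 37592 at stage 12, a difference within the sum of the SDs (D64052.1, 1.29 ± 0.44), and lost its call when the larger group variance was used. The next, a type 2 metallothionein, which binds metal ions, was precise in both groups, at 100128 ± 6142 post secretory, against 28580 ± 1465 at stage 12 (XM_016634706.1; 1.81). A second metallothionein rose to 29283 ± 1038 post secretory, against 13411 ± 456 at stage 12 (XM_016637342.1, 1.13). A polyubiquitin, often used as a stable gene, was not called, at 41464 ± 7634 post secretory and 49848 ± 3574 at stage 12 (XM_016632677.1).

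Wall and surface genes leaned upward. Of 116 wall loosening and pectin transcripts 50 rose and 20 fell, with a median of 0.74, and 30 rises and 7 falls were left with a mean of 50 or more in both groups. Expansin-A10-like, which loosens growing walls, reached 2534 ± 120 post secretory, against 311 ± 19 at stage 12 (XM_016609063.1; 3.02 ± 0.07, adjusted p = 3.3e-10). A polygalacturonase, which cuts pectin, reached 1855 ± 146 post secretory, against 219 ± 47 at stage 12 (XM_016651200.1, 3.08 ± 0.13). A pectinesterase reached 466 ± 56 post secretory, against 28 ± 6 at stage 12 (XM_016603253.1, 4.01 ± 0.16). A xyloglucan endotransglucosylase went the other way, at 71 ± 15 post secretory, against 513 ± 26 at stage 12 (XM_016581891.1, -2.84 ± 0.14).

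Of 42 lipid transfer and cuticle transcripts 25 rose and 1 fell, with a median of 1.24. The lipid-transfer protein 1-like transcript, of a family that coats plant surfaces, reached 5170 ± 268 post secretory, against 328 ± 36 at stage 12 (XM_016599458.1; 3.97 ± 0.09, adjusted p = 1.4e-10). The one fall was a ketoacyl-CoA synthase, an enzyme of wax chain elongation, at 218 ± 27 post secretory, against 2095 ± 109 at stage 12 (KJ423103.1, -3.26 ± 0.09). Of 42 cellulose, lignin and secondary wall transcripts 14 rose and 4 fell, with a median of 0.55. Of the secondary wall cellulose synthases, CESA4 rose to 352 ± 36 post secretory, against 23 ± 9 at stage 12 (XM_016612517.1, 3.88 ± 0.23). CESA7 reached 618 ± 80 post secretory, against 81 ± 3 at stage 12 (XM_016588315.1, 2.92), and CESA8 was not called, at 587 ± 55 post secretory and 321 ± 18 at stage 12 (XM_016657842.1, 0.87 ± 0.09). Laccase-4, a lignin polymerizing oxidase, reached 248 ± 77 post secretory, against 16 ± 1 at stage 12 (XM_016636360.1, 3.87).

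Some vascular markers rose beside these secondary wall genes. Of 11 matched vascular markers 3 were listed at 0 in both groups, 5 were tested and 4 rose, and the list sum was 1743 post secretory, against 1004 at stage 12. Xylem cysteine proteinase 1-like, a marker of maturing xylem, reached 483 ± 125 post secretory, against 90 ± 16 at stage 12 (XM_016607817.1, 2.41 ± 0.18). Another xylem cysteine proteinase 1-like transcript stood at 81 ± 29 post secretory, against 8 ± 4 at stage 12. A SIEVE ELEMENT OCCLUSION B-like transcript stood at 64 ± 37 post secretory, against 4 ± 3 at stage 12. Both entered the test only through their post secretory means. The most abundant marker, the SUC2-like carrier, was not called, at 880 ± 5 post secretory and 797 ± 26 at stage 12. The part of vascular tissue in the secondary wall result was not tested.

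Flavonoid synthesis rose at several steps. Of 17 phenylpropanoid and flavonoid transcripts 11 rose and none fell, with a median of 1.68. Phenylalanine ammonia-lyase, the entry enzyme, had a minor copy at 674 ± 62 post secretory, against 69 ± 6 at stage 12 (XM_016625506.1; 3.27 ± 0.10, adjusted p = 2.0e-09). The sum over 7 transcripts of its locus, AT2G37040, was not called, at 4021 post secretory and 2024 at stage 12 (0.99). Chalcone synthase 2, which builds the flavonoid skeleton, reached 1481 ± 325 post secretory, against 163 ± 24 at stage 12 (XM_016634418.1; 3.18 ± 0.15, adjusted p = 3.5e-08). Flavanone 3-hydroxylase, annotated naringenin 3-dioxygenase-like, reached 2163 ± 432 post secretory, against 375 ± 56 at stage 12 (XM_016630614.1, 2.52 ± 0.14). Dihydroflavonol reductase reached 2137 ± 523 post secretory, against 387 ± 43 at stage 12 (AB289448.1, 2.46 ± 0.15). Anthocyanidin synthase, at the end of the route, was low in both groups, at 118 ± 33 post secretory, against 18 ± 4 at stage 12 (AB723683.1, 2.65 ± 0.23).

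Histone genes rose as a group and cell cycle genes in part. Of 63 tested histone transcripts 42 rose and none fell, with a median of 1.42, and the list sum was 78290 post secretory, against 39795 at stage 12. A histone H2B.2-like transcript reached 679 ± 113 post secretory, against 123 ± 10 at stage 12 (XM_016628367.1; 2.46 ± 0.12, adjusted p = 4.4e-08). An H3.2 copy reached 1122 ± 127 post secretory, against 240 ± 40 at stage 12 (XM_016642260.1, 2.22 ± 0.12). Histone H3.3, the variant laid down outside DNA replication, was not called, at 9126 ± 259 post secretory and 5487 ± 200 at stage 12 (XM_016635330.1, 0.73 ± 0.07). Histone copies are near-identical, so reads may be divided among them and the separate transcript values are uncertain.

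Of 39 cell cycle transcripts 12 rose and 2 fell, with a median of 0.69, and 6 rises and 1 fall were left with a mean of 50 or more in both groups. A G2/mitotic cyclin reached 292 ± 37 post secretory, against 40 ± 10 at stage 12 (XM_016596409.1; 2.84 ± 0.18, adjusted p = 2.2e-07). A cyclin-D3-2-like transcript, of a class that drives entry into division, reached 618 ± 36 post secretory, against 173 ± 18 at stage 12 (XM_016603007.1, 1.83 ± 0.10). The most abundant member, a ribonucleotide reductase, was not called, at 841 ± 45 post secretory and 548 ± 13 at stage 12 (XM_016589669.1).

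Markers of the neighbouring ovule and seed were examined beside these rises. Of 14 matched ovule markers 4 were listed at 0 in both groups, among them the INNER NO OUTER-like one, and of the 4 tested 3 rose. The ovule marker sum was 1112 post secretory, against 417 at stage 12, and had been 1961 at stage 9. The AGL11 (SEEDSTICK-like) transcript, an ovule identity factor, stood at 612 ± 143 post secretory, against 225 ± 26 at stage 12 (XM_016619520.1, 1.44 ± 0.15). Of 32 matched seed markers 23 were listed at 0 in both groups, legumins and 11S globulins included, and of the 7 tested 4 rose and 1 fell. The seed marker sum was 3626 post secretory and 4137 at stage 12, and a vicilin-like transcript, not called, held most of it at 2066 ± 383 post secretory and 3727 ± 119 at stage 12 (XM_016656065.1). Without that transcript, which was itself lower post secretory, the sum was 1560 post secretory, against 410 at stage 12. The 2S protein-like transcript alone held 1013 of the 1560 post secretory, against 8 of the 410 at stage 12. The rises were 3 oleosins, at 32, 23 and 7 at stage 12, and the 2S protein-like transcript, at 8 at stage 12. With a mean of 50 or more required in both groups, no rise or fall of a seed marker was left. An oleosin, a coat protein of seed oil bodies, stood at 159 post secretory, against 7 at stage 12 (XM_016631281.1), and AGL62, an endosperm regulator, at 1 ± 1 post secretory, against 187 ± 1 at stage 12 (XM_016590629.1). The part of ovule or seed tissue in the rises of histone, cell cycle and storage protein transcripts was not tested. The 2S protein-like transcript is itself one of the seed markers, so the marker list is not independent of its rise.

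Markers of other flower parts gave a mixed picture. Of 17 transcripts taken as fruit wall markers 4 were listed at 0 in both groups, and of 12 tested 1 rose and 5 fell, with sums of 4862 post secretory and 8305 at stage 12. They are described as floral regulators. An AGL8 homolog among them also stood at 461 in leaf and 649 in sepal of N. plumbaginifolia, so they are not particular to the fruit wall. An AGAMOUS-like transcript matched to SHATTERPROOF1, AT3G58780, fell to 632 ± 50 post secretory, against 2925 ± 31 at stage 12 (XM_016580095.1, -2.21 ± 0.07). Another copy stood at 548 post secretory, against 319 at stage 12 (XM_016631071.1), and the locus sum fell to 2320, against 5203 (-1.16). Of 25 transcripts named for pollen or anther 6 were listed at 0 in both groups, and of 16 tested 6 rose and 4 fell, with sums of 14423 post secretory and 6966 at stage 12. The anther protein LAT52-like stood at 46 ± 19 post secretory, against 217 ± 46 at stage 12 (XM_016580587.1). All 4 pistil-specific extensins, taken as style and stigma markers, were listed at 0 in both groups and at stages 6 and 9. Whether N. benthamiana reads can be scored on them was not tested, so these zeros do not show that such tissue was absent. In N. plumbaginifolia 1 of them stood at 2422 in leaf and 6109 in ovary, so it is not particular to style and stigma.

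Hormone genes changed in both directions. Among 20 gibberellin transcripts 7 rose and 7 fell, with a median of 0.25, and most of the rises were under 50 at stage 12. GAST1-like, from a family of small gibberellin-regulated proteins, rose to 2769 ± 177 post secretory, against 35 ± 9 at stage 12 (XM_016589707.1; 6.27 ± 0.15, adjusted p = 3.3e-10). The receptor GID1B-like fell to 81 ± 25 post secretory, against 1191 ± 91 at stage 12 (XM_016659260.1, -3.86). A gibberellin 2-beta-dioxygenase, which inactivates the hormone, also fell, by 3.61 on the log2 scale (XM_016576763.1).

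Among 92 auxin transcripts 35 rose and 7 fell, with a median of 0.59. The auxin response repressor IAA4-like fell to 838 ± 214 post secretory, against 5582 ± 127 at stage 12 (XM_016657553.1, -2.73 ± 0.15). Auxin response factor 4-like rose to 390 ± 19 post secretory, against 82 ± 12 at stage 12 (XM_016606813.1, 2.24 ± 0.12). The most abundant auxin member, IAA8-like, was not called, at 8217 ± 91 post secretory and 7197 ± 368 at stage 12 (XM_016610251.1).

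Among ethylene synthesis genes, ACC oxidase transcripts of the locus AT1G05010 fell and ACC synthase transcripts of AT4G11280 rose. Of 35 ethylene transcripts 3 rose and 6 fell, beside 13.2% and 10.4% of all tested transcripts, with a median of -0.13. An ACC oxidase, the ethylene-forming enzyme, stood at 975 ± 562 post secretory, against 7056 ± 212 at stage 12 (XM_016618795.1, -2.85 ± 0.31). A second fell to 2220 ± 296 post secretory, against 5102 ± 196 at stage 12 (X83229.1, -1.20). Their locus, AT1G05010, summed to 4684 post secretory, against 16679 at stage 12 (-1.83). An ACC oxidase of another locus was not called, at 1058 ± 266 post secretory and 798 ± 118 at stage 12 (XM_016611980.1). ACC synthase, the committing enzyme, gave 2 of the 3 rises, the more abundant at 483 ± 53 post secretory, against 236 ± 16 at stage 12 (XM_016614783.1, 1.03 ± 0.10). Of 23 abscisic acid and desiccation transcripts 3 rose and 7 fell, with a median of -0.17. Abscisic acid 8'-hydroxylase, which degrades the hormone, fell to 39 ± 1 post secretory, against 473 ± 22 at stage 12 (XM_016596931.1, -3.57 ± 0.10). A copy of the cleavage dioxygenase NCED3, which makes its precursor, fell to 185 ± 19 post secretory, against 830 ± 56 at stage 12 (XM_016639826.1, -2.16 ± 0.09), while another was not called, at 991 ± 76 post secretory and 977 ± 55 at stage 12 (JX101472.1).

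Of 25 jasmonate transcripts 4 rose and 3 fell, with a median of 0.33. The repressor JAZ1 fell to 209 ± 24 post secretory, against 1010 ± 19 at stage 12 (AB433896.1, -2.27 ± 0.09), and a 13-lipoxygenase fell to 3067 ± 137 post secretory, against 8134 ± 256 at stage 12 (XM_016640120.1, -1.41 ± 0.07). A jasmonate O-methyltransferase-like transcript, which lies outside that list and is among the largest falls, stood at 21 ± 10 post secretory, against 1787 ± 25 at stage 12 (XM_016643029.1, -6.34 ± 0.25). Of 31 cytokinin transcripts 6 rose and 7 fell, with a median of 0.12. A zeatin O-glucosyltransferase-like transcript, also outside the list and matched to the glucosyltransferase UGT73B5, fell to 14 ± 0 post secretory, against 2528 ± 129 at stage 12 (XM_016612520.1; -7.40 ± 0.09, adjusted p = 6.9e-12).

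Genes commonly linked to ageing tissue did not move as one. Of 18 senescence regulators and proteases 7 rose and 1 fell, with a median of 0.25. WRKY70, a regulator of senescence and defence, rose to 404 ± 35 post secretory, against 92 ± 9 at stage 12 (XM_016646779.1, 2.12 ± 0.11). None of 36 autophagy transcripts rose and 6 fell, with a median of -0.58. Of 39 NAC factors 4 rose and 7 fell, with a median of -0.42, and of 45 WRKY factors 10 rose and 2 fell, with a median of 0.21. All 4 NAC rises and some of the WRKY rises were under 50 at stage 12. NAC72-like, a stress-responsive factor, fell to 155 ± 69 post secretory, against 1194 ± 13 at stage 12 (XM_016585565.1, -2.94 ± 0.24). NAC73-like rose to 214 ± 17 post secretory, against 22 ± 2 at stage 12 (XM_016633734.1, 3.22 ± 0.14).

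Defence genes leaned upward, with 23 rises and 4 falls among 49 tested and a median of 0.77. Many of the rises were under 50 at stage 12, so they entered the test only through their post secretory means. By locus the lean was smaller, with 8 rises and 2 falls among 25 tested and a median of 0.30, beside -0.06 over all loci. The insect injury-induced proteinase inhibitor was the most abundant member, at 16483 ± 3412 post secretory, against 6213 ± 553 at stage 12 (DQ071272.1, 1.41 ± 0.14). A defensin J1-2-like antimicrobial peptide reached 774 ± 161 post secretory, against 60 ± 5 at stage 12 (XM_016592051.1, 3.67 ± 0.14). Another defensin-like transcript fell to 772 ± 108 post secretory, against 5499 ± 429 at stage 12 (XM_016659546.1, -2.83 ± 0.10). The chitinase PR-Q fell to 231 ± 137 post secretory, against 2731 ± 287 at stage 12 (M29868.1, -3.56 ± 0.32).

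Of 51 redox and ascorbate transcripts 7 rose and 16 fell, with a median of -0.30. The list takes in transcripts described as L-ascorbate oxidase homologs but matched to SKU5-similar loci, and some of these are among the rises and the falls. The counts are therefore not of ascorbate and redox enzymes alone. Catalase-3, which removes hydrogen peroxide, fell to 166 ± 13 post secretory, against 1231 ± 38 at stage 12 (XM_016601638.1, -2.88). GDP-L-galactose phosphorylase, a control step of ascorbate synthesis, rose to 15793 ± 1683 post secretory, against 6602 ± 723 at stage 12 (XM_016651960.1, 1.26). Of 29 circadian clock transcripts none rose and 15 fell, with a median of -1.08. The morning factor LHY-like fell to 69 ± 25 post secretory, against 344 ± 6 at stage 12 (XM_016594933.1, -2.30), and the evening gene GIGANTEA-like fell to 1742 ± 199 post secretory, against 4260 ± 270 at stage 12 (XM_016647776.1, -1.29). The labels give no time of day of collection for either group, so stage and hour cannot be told apart for clock genes. Of 33 heat shock protein transcripts 3 rose and 4 fell, with a median of 0.04. Of 6 transcripts of the nicotine route 1 rose and none fell, with a median of -0.27.

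**Figure D3:**
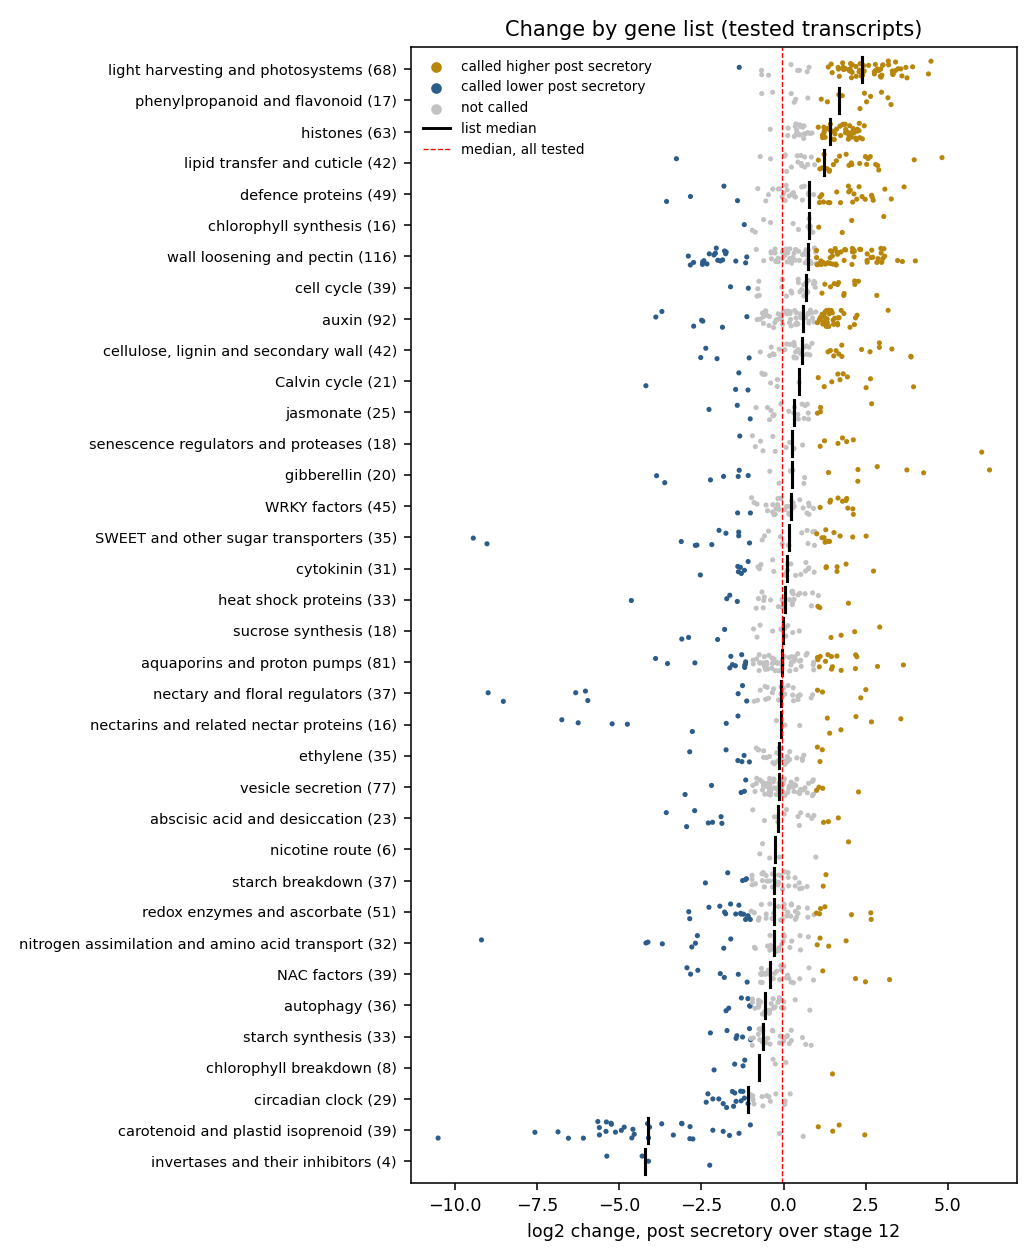
Log2 change (post secretory over stage 12) of each tested transcript in 36 gene lists, with the number tested in brackets, the list median as a black bar and the median of all tested transcripts as a dashed line. Light harvesting and photosystems lie highest, with a median of 2.39, and carotenoid synthesis and invertases lowest, with medians of -4.11 and -4.20.

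The earlier stages set these levels in their order of development. The carotenoid list sum was 146642 at stage 6, 129090 at stage 9, 170725 at stage 12 and 8415 post secretory. The photosystem list sum was 14123 at stage 6, 12423 at stage 9, 19062 at stage 12 and 80230 post secretory. The histone list sum was 64773 at stage 6, 81677 at stage 9, 39795 at stage 12 and 78290 post secretory, so its lowest value was that of stage 12. NEC1-like stood at 12265 at stage 6, 31927 at stage 9, 70716 at stage 12 and 101 post secretory. These sums and levels are descriptions, and changes against stages 6 and 9 were not tested.

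**Figure D4:**
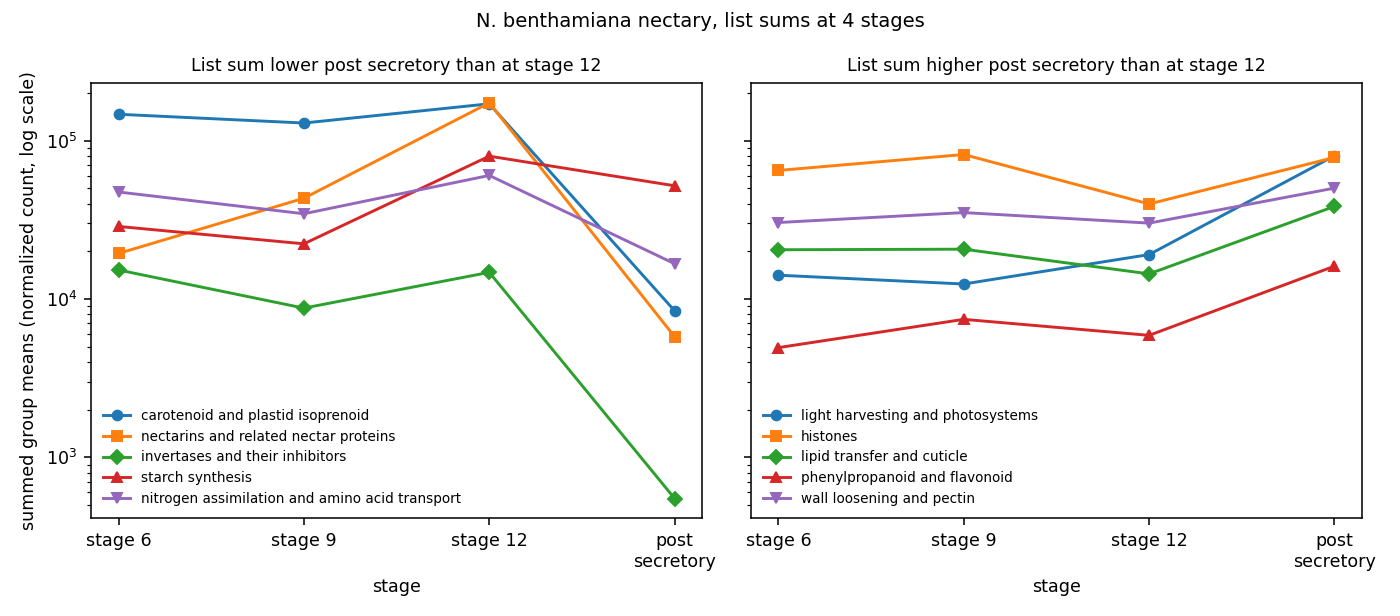
Summed group means (normalized counts, log scale) of 10 gene lists at stage 6, stage 9, stage 12 and post secretory in N. benthamiana, lists with a lower sum post secretory on the left and with a higher sum on the right. At stage 12 the nectarin list is mostly the secoisolariciresinol dehydrogenase-like transcript, and the invertase list stands at 549 post secretory, against 14722 at stage 12.

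Because N. benthamiana reads were scored on N. tabacum transcripts, several of which can stand for the same gene, the comparison was repeated on sums per matched Arabidopsis locus. Among 11094 tested loci 1365 rose and 946 fell, which is 12.3% and 8.53% and together 20.8%. The median change of the tested loci was -0.06. The locus of SWEET9, AT2G39060, summed to 101 post secretory, against 71234 at stage 12 (-9.45). The locus of MYB24, AT5G40350, to which the MYB305-like transcripts are matched, summed to 18 post secretory, against 8554 at stage 12 (-8.81). The proline-rich extensin locus AT2G43150 summed to 2824 post secretory, against 126 at stage 12 (4.48).

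By locus, the photosystem and carotenoid lists kept their directions. Of 33 light harvesting and photosystem loci 28 rose and 1 fell, with a median of 2.30. Of 17 carotenoid and plastid isoprenoid loci 14 fell and 2 rose, with a median of -3.53. Of 24 histone loci 14 rose and none fell, with a median of 1.06. Of 14 clock loci 5 fell and none rose. Among the 4710 loci with several tested transcripts, 94 had copies called in opposite directions. For several transcripts named above the locus sum was not called. The glucose 6-phosphate importer locus AT1G61800 summed to 3707 post secretory and 7134 at stage 12 (-0.94). The vacuolar-processing enzyme locus AT4G32940 summed to 2361 post secretory and 2508 at stage 12 (-0.09). The NCED3 locus AT3G14440 summed to 1176 post secretory and 1807 at stage 12 (-0.62), and the JAZ locus AT1G74950 to 4472 post secretory and 5308 at stage 12 (-0.25). The defensin locus AT2G02100 summed to 4793 post secretory and 4405 at stage 12 (0.12), and the GIGANTEA locus AT1G22770 to 6398 post secretory and 12470 at stage 12 (-0.96). The Rubisco small subunit locus AT1G67090 summed to 7321 post secretory and 9937 at stage 12 (-0.44).

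The change was next set against the same change in the other species. N. bonariensis and N. clevelandii have identical values in the deposited table and were counted once, which leaves 4 other profiles. Of 5927 transcripts that reached 50 at either stage in every profile, 46 changed more positively in N. benthamiana than in each other profile and 75 more negatively, by limma on the difference of changes (adjusted p under 0.05 and at least 1 on the log2 scale against each profile). These are 0.776%, 1.27% and together 2.04% of the transcripts tested. Requiring 50 at both stages in every profile left 24 and 56.

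Flavonoid and histone genes were among the transcripts that changed more positively. Chalcone synthase 2 changed by 3.18 in N. benthamiana, beside -1.75 for N. rustica, 0.57 for N. glauca, 0.02 for N. plumbaginifolia and -4.41 for the shared profile of N. bonariensis and N. clevelandii (XM_016634418.1; smallest difference 2.60, largest adjusted p = 3.2e-05). Flavanone 3-hydroxylase changed by 2.52 in N. benthamiana, beside -1.99, -2.82, 0.03 and -4.04 in those profiles, given in the same order (XM_016630614.1; smallest difference 2.49, largest adjusted p = 1.2e-03). The whole phenylpropanoid and flavonoid list did not set N. benthamiana apart, with 2 of 5 comparable transcripts called and medians of 1.68 in N. benthamiana and 1.96 in N. rustica.

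Of 20 comparable histone transcripts 7 changed more positively in N. benthamiana than in every other profile and none more negatively. A histone H4 changed by 1.88 in N. benthamiana, beside -0.18, -0.74, -0.11 and -1.32 in the same order (XM_016604183.1; smallest difference 1.99, largest adjusted p = 2.9e-03). The median change of the tested histone transcripts was 1.42 in N. benthamiana, beside -0.96 for N. rustica, -0.72 for N. glauca, 0.22 for N. plumbaginifolia and -1.22 for the shared profile.

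Some of the widest differences from the other profiles were as follows. The adhesive plaque matrix protein-like transcript fell to 362 ± 12 post secretory, against 6462 ± 510 at stage 12, a change of -4.15 beside 0.82 to 2.01 elsewhere (XM_016658827.1; smallest difference -4.97, largest adjusted p = 5.3e-06). An uncharacterized transcript stood at 1 ± 1 post secretory, against 61 ± 11 at stage 12 (XM_016611640.1; smallest difference -4.42, largest adjusted p = 7.0e-11). The tonoplast aquaporin TIP1-1 rose to 383 ± 41 post secretory, against 52 ± 5 at stage 12, a change of 2.86 beside changes between -2.03 and -0.36 elsewhere (XM_016657795.1; smallest difference 3.22, largest adjusted p = 3.4e-04). The auxin-transporting ABC transporter B19 rose to 772 ± 59 post secretory, against 49 ± 12 at stage 12, a change of 3.95 beside at most 0.87 elsewhere (XM_016610098.1; smallest difference 3.08, largest adjusted p = 2.4e-04). Also more negative, the DET2-like steroid reductase of brassinosteroid synthesis fell to 11 ± 5 post secretory, against 714 ± 29 at stage 12, a change of -5.90 beside -1.55 to -2.06 elsewhere (XM_016633541.1; smallest difference -3.83, largest adjusted p = 1.1e-08).

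**Figure D5:**
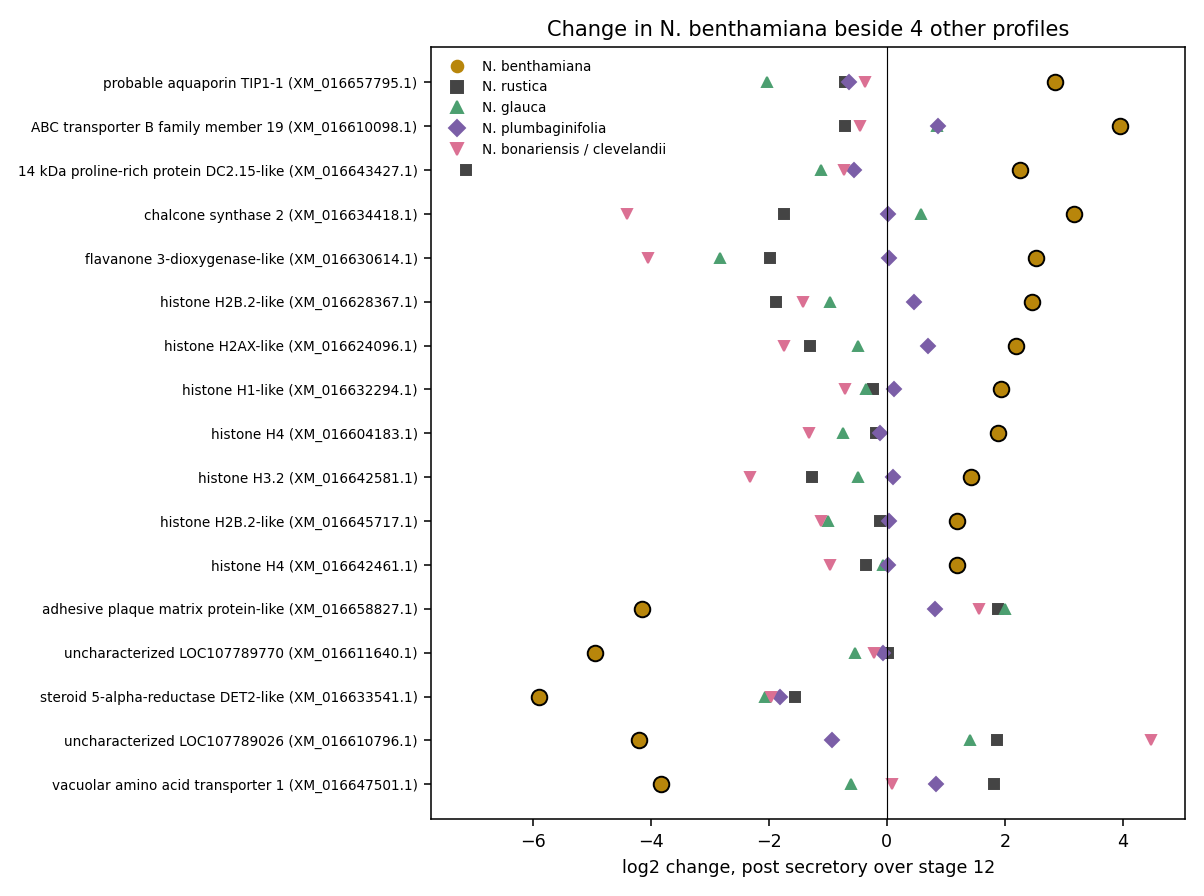
Log2 change (post secretory over stage 12) of 17 transcripts whose change in N. benthamiana (circles) differed from that in each of 4 other profiles. The 12 upper transcripts, 7 of them histones, changed more positively in N. benthamiana, and the 5 lower ones more negatively.

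The groups with the most uniform changes in N. benthamiana were not called different across species. None of 13 comparable carotenoid and plastid isoprenoid transcripts and none of 19 comparable light harvesting and photosystem transcripts differed from every other profile by this limma test. The carotenoid median was -4.11 in N. benthamiana, beside -4.44 for N. rustica, -3.06 for N. glauca, -1.87 for N. plumbaginifolia and -3.60 for the shared profile. The photosystem median was 2.39 in N. benthamiana, beside 2.65 for N. rustica, 5.47 for N. glauca, 1.41 for N. plumbaginifolia and 2.35 for the shared profile. A transcript had to be lower or higher than in all 4 profiles to be called, so these counts do not show that the species changed alike. The 2S seed storage protein-like transcript could not be compared, since it was listed at 0 at both stages in all 4 other profiles.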

How the data were processed

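Nectary RNA was sequenced as 50 bp read pairs, per the labels' protocols. The authors deposited a single table of N. tabacum transcripts with group means and SDs, each over 3 libraries, and values are treated here as a score: normalized counts that the authors scaled with DESeq, per the submitters' processing notes, and wrote as whole numbers. The sources used here do not state the aligner, versions or calling threshold. Columns of another kind (other) hold the authors' yes or no calls. No table of raw counts or of single libraries was used, so depth and counting precision are unknown, and a mean of 0 may be rounded.

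Groups follow the sample titles. Transcripts with a mean of 50 or more in either group were tested with limma 3.58.1 in R 4.3.3 on group means and SDs: the log2 variance of a group was taken from its SD (not under 0.5) and its mean plus 1, the 2 variances were averaged with 4 residual degrees of freedom, and variances were moderated with a trend. Benjamini-Hochberg adjustment ran over all transcripts tested. Locus sums used the sum of the SDs, an upper bound. Differences between profiles used 10 groups and 20 residual degrees of freedom. The procedure was tested on simulated data.

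Named transcripts follow a rule: the 10 largest rises and falls, members at 0 in a group, the most abundant of each group, and in each of 36 gene lists the most changed and most abundant members. Transcripts named beyond this rule, to fill in pathway steps, further copies and marker genes, were chosen after their values were seen. Lists were matched by Arabidopsis locus or description. Members and lists were chosen with earlier results of these data known. Sequences were not used here. Alternatives were the pseudocount, the filter on low means, the scaling, the variance and the call.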

Additional observations from a re-analysis of the deposited data

Results flagged for a closer look

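The transcripts below are set apart because their change in N. benthamiana (post secretory against stage 12) differed, by limma on the difference of changes, from the change in each of the 4 other profiles. Each value is the smallest of the 4 differences, on the log2 scale. More negative in N. benthamiana were an adhesive plaque matrix protein-like transcript (XM_016658827.1, -4.97), an uncharacterized transcript matched to a protein kinase (XM_016611640.1, -4.42), the DET2-like steroid reductase (XM_016633541.1, -3.83), an uncharacterized transcript (XM_016610796.1, -3.27), the vacuolar amino acid transporter 1 (XM_016647501.1, -3.22), the zeatin O-glucosyltransferase-like transcript (XM_016612520.1, -1.98) and a vacuolar-processing enzyme-like transcript (XM_016600344.1, -1.20). More positive were the aquaporin TIP1-1 (XM_016657795.1, 3.22), ABC transporter B19 (XM_016610098.1, 3.08), the proline-rich protein DC2.15-like (XM_016643427.1, 2.80), chalcone synthase 2 (XM_016634418.1, 2.60), flavanone 3-hydroxylase (XM_016630614.1, 2.49) and a histone H2B.2-like transcript (XM_016628367.1, 1.99).

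The vacuolar-processing enzyme-like transcript was not called within N. benthamiana, at 960 ± 185 post secretory and 1739 ± 76 at stage 12. DC2.15-like was variable post secretory, at 346 ± 213, against 72 ± 19 at stage 12. The causes of these differences were not tested.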

How the results depend on the processing

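With a mean of 50 or more in both groups, 1651 transcripts were higher post secretory, against 2733 as reported, which follows from the 1082 rises under 50 at stage 12. With the adjusted p alone and no 2-fold limit, 14628 transcripts were called, 6980 higher and 7648 lower. Between profiles, a mean of 50 or more at both stages left 80 transcripts that differed from every other profile, 24 of them more positive. Other counts of transcripts and loci stayed within 1.5 times under the alternatives run. Rescaling to a median change of 0 gave 2919 rises and 1948 falls. Of 1457 values of the 136 named transcripts under alternatives, none changed direction, 3 lost their call (D64052.1 under 2 alternatives and an autophagy-related transcript when rescaled), and 13 gained one, each with the adjusted p alone. Of 902 list counts under alternatives 85 moved by more than 1.5 times, 51 of them with the adjusted p alone, which drops the 2-fold limit and can only add calls. A mean of 50 or more in both groups moved 29. It left 7 rises of sugar transporters, 2 falls of invertases, 1 rise in starch breakdown, 2 rises and 4 falls of floral regulators, 2 rises of nectarins, 13 rises in defence, 2 falls in the Calvin cycle, no rise in chlorophyll breakdown, 4 rises in senescence, no rise of NAC factors and 6 of WRKY factors. It also left 1 rise each in the ethylene and gibberellin lists, 3 rises in cytokinin, 6 in the secondary wall list and 2 in nitrogen, 3 falls in vesicle secretion, 1 fall of heat shock proteins, and the carotenoid, wall and cell cycle counts given with those lists. Among markers it left no rise or fall for seed, 3 falls for fruit wall, 1 fall for pollen and anther and 2 rises for vascular tissue. A pseudocount of 10 gave 1 fall of WRKY factors, 2 rises in vesicle secretion and 2 in nitrogen, and rescaling gave 1 fall of WRKY factors and 2 rises in the nicotine route. Of 41 list medians 2 changed sign when rescaled, by at most 0.06. No paired analysis was possible because the table holds group means and SDs, with no column for a replicate, and no library could be left out for the same reason. Depth is unknown, so low means are limited by rounding and by counting error that could not be separated.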

Other observations

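Further gene families were described after their values were seen, so they carry no test. Of 34 tested arabinogalactan proteins, wall glycoproteins, 27 rose and 2 fell, with a median change of 2.17. The most abundant, arabinogalactan protein 31-like, reached 13351 ± 426 post secretory, against 1445 ± 116 at stage 12 (XM_016580511.1). All 7 tested metallothioneins rose, and their sum was 150963 post secretory, against 46717 at stage 12. Of 17 transcripts described as peroxidases 13 rose and 2 fell, with a median of 2.51, and the falls were a glutathione and a thioredoxin peroxidase. Of 29 GDSL esterases and lipases 15 rose and none fell, with a median of 1.00. Of 97 tubulins and kinesins 34 rose and 4 fell, with a median of 0.57. Of 37 subtilisin-like proteases 16 rose and 1 fell, with a median of 0.82.

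Of 45 malate and citrate enzymes and transporters 2 rose and 17 fell, with a median of -0.83. A malate dehydrogenase stood at 3208 ± 307 post secretory, against 12065 ± 210 at stage 12 (AJ299256.1). Citrate synthase stood at 491 ± 53 post secretory, against 2635 ± 165 at stage 12 (KJ001139.1). Of 821 transcripts described as mitochondrial 18 rose and 103 fell, with a median of -0.29, and the falls were 12.5% of them, beside 10.4% of all tested transcripts. Ribosomal proteins were nearly flat, with 27 rises and 1 fall among 437 and a median of 0.18.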
